A study of Mus musculus with 24 samples.

Results

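The eosinophil-associated ribonucleases, or Ear genes, were followed through bone marrow eosinophil maturation. The members were the rows named Ear1, Ear2, Ear6 and Ear10 in the count file of every library, 4 of 24982 gene rows, and all 4 passed the filter on low counts with 12743 genes in all. The cells were wild-type C57BL6 mouse bone marrow eosinophils sorted into 4 stages of maturation (I to IV). Donor mice were in steady state, or received a daily abdominal injection of 400 ng of recombinant IL-33, a cytokine that drives eosinophilia, over 7 days. Each of the 8 groups held 3 libraries, 24 in all, and each library came from marrow pooled over 3 mice, so differences between single animals were not measured. Steady-state mice are not described as having received a vehicle injection. Magnetic depletion took out cells with CD45R, NK1.1, CD90.2 or Ly6G. The stages were then gated on CD200R3, Pir-A/B, CD117, CD55, Siglec-F, F4/80 and CD29, and the stated sort purity was at least 95%. Age and sex of the mice are not given in the labels. The design text calls the triplicates biological.

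Ear genes belong to the ribonuclease A superfamily, secreted enzymes that cleave RNA and are held in their folded form by disulfide bonds. Their products are stored in the secondary granules of mouse eosinophils beside eosinophil peroxidase and major basic protein, and they are the mouse counterparts of eosinophil-derived neurotoxin and eosinophil cationic protein. The rodent branch grew by gene duplication, so a cluster of closely similar copies and pseudogenes lies on 1 chromosome. Ear1 and Ear2 are the copies best known from granules of marrow eosinophils. Granule proteins are made early in eosinophil maturation and stored, so the RNA level and the protein content of a cell can differ.

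All 4 genes lie on chromosome 14 (GRCm38, GENCODE M21). Ear1 spans chr14:43818765-43875517 on the minus strand, Ear10 spans chr14:43922720-43923559 on the minus strand, Ear2 spans chr14:44102654-44103534 on the plus strand, and Ear6 lies apart at chr14:51853699-51854643 on the plus strand. The reference transcript of each has 2 exons, and the whole coding sequence, 468 bases in Ear1 and Ear6 and 471 in Ear2 and Ear10, lies in exon 2. The long annotated span of Ear1 comes from a second transcript, and it overlaps the pseudogenes Ear-ps12 and Ear-ps9 on the same strand, and Ang-ps2 and the noncoding gene AC154806.1 on the opposite one. Gm49101, a noncoding gene, overlaps Ear2 on the opposite strand. These are overlaps of whole gene spans, and the annotated exons of Ear1 cover only 730 bases. Overlap of exons was not measured. The libraries carry no strand information, so where exons on opposite strands overlap, their reads cannot be told apart by strand. How similar the copies are is seen in the first 150 bases of their coding sequences (GENCODE M21, 5′ to 3′), where capitals mark the bases that differ from Ear1.
Ear1: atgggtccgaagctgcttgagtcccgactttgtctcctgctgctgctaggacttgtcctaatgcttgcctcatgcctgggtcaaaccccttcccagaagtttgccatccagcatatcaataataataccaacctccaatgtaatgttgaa
Ear2: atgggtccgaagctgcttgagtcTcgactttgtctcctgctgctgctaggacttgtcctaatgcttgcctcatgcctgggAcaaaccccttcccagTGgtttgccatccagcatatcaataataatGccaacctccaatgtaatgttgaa
Ear6: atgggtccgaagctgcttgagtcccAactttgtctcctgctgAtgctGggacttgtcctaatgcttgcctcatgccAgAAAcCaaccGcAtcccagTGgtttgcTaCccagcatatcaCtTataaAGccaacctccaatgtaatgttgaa
Ear10: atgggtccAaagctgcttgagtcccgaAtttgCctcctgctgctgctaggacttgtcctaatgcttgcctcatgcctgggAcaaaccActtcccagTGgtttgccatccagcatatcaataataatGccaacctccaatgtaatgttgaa

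In this stretch Ear2 differed from Ear1 at 5 positions, Ear10 at 8 and Ear6 at 18. Over the whole coding sequence, Ear2 and Ear10 were 97% identical, Ear1 and Ear2 95.1%, and Ear1 and Ear10 94.5%, whereas Ear6 was 87.4% to 87.7% identical to the others. A read can be given to 1 copy only where its sequence is unique. Of all 50-base windows of the reference transcripts, 57.4% of those of Ear1, 41.5% of Ear2, 39.9% of Ear10 and 1.36% of Ear6 occurred exactly in a transcript of another Ear gene or an Ear pseudogene. At 150 bases the shares were 5.67%, 6.32%, 6.81% and 0%, in the same order. The sources used here give neither the read length nor the treatment of reads that match several places. Levels of Ear1, Ear2 and Ear10 therefore carry an uncertainty that Ear6 hardly shares, and the family sum (all 4 rows added) is reported beside the members.

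All 4 members had their lowest mean at steady-state stage IV, so the sequence before each start site is shown for all 4 (RefSeq, GRCm38.p6, 5′ to 3′ on the strand of the gene), with capitals marking the CCAAT boxes found by a search of both strands. The stretches are chr14:43819640-43819889 for Ear1 on the minus strand, chr14:44102404-44102653 for Ear2 on the plus strand, chr14:51853518-51853698 for Ear6 on the plus strand and chr14:43923597-43923846 for Ear10 on the minus strand. Positions are counted from the RefSeq start, which for Ear6 lies 69 bases inside the GENCODE gene. Those 69 bases are left out of its stretch because they belong to an annotated transcript, but they were part of the search. The Ear1 stretch lies wholly within the long GENCODE span of that gene, so it does not precede the start of its second transcript.
Ear1: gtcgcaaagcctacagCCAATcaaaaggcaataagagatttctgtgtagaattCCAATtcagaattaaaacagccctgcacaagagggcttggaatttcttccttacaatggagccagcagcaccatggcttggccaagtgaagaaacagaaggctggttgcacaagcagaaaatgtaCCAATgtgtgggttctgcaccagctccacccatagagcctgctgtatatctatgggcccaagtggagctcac
Ear2: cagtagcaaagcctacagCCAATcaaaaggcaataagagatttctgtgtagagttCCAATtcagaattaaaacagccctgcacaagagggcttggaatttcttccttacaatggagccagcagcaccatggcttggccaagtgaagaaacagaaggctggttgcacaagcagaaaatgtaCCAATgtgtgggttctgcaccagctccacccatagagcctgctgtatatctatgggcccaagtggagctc
Ear6: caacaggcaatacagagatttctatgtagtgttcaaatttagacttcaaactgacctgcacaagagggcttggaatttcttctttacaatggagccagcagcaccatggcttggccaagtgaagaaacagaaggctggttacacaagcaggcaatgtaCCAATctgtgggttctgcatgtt
Ear10: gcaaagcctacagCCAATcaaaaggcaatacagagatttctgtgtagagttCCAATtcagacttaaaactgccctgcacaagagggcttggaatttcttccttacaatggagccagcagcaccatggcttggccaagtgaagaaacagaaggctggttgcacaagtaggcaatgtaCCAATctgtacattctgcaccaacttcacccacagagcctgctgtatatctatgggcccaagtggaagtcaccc

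Over the 250 bases before the start, Ear1 and Ear2 were 97.6% identical, Ear10 was 91.7% identical to Ear1 and 90.6% to Ear2, and Ear6 was 77.3% to 79.2% identical to the others. Gap columns of the alignments counted as differences in these percentages. There were 38 to 46 of them in the pairs with Ear6 and 4 to 10 in the other pairs. The lower Ear6 percentages thus include gaps and do not give the share of changed bases alone. Ear1, Ear2 and Ear10 each held 3 CCAAT matches and Ear6 held 1, and 33.8% of 32851 promoters of the same length held at least 1. TTNNGNAA, a word bound by the C/EBP family of transcription factors, occurred 1 time in each of the 4, with a background of 36.8%. TATATC began 26 to 30 bases before each RefSeq start, and 4.82% of all promoters hold that word. For Ear6 it lies in the 69 bases not shown. None of the 4 held a GATA word, searched as AGATAA and AGATAG as well as TGATAA and TGATAG (background 26.5%). Nor did any hold GAGGAA, a word of the factor PU.1 (23.3%), or TATAAA, the TATA box (12.4%). These searches covered both strands, the words did not overlap each other in the Ear stretches, and no match says only that these letters are not in the window.

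Levels are given as scaled CPM, the count of a gene per 1000000 gene counts of its library, after the library total is scaled for composition. Gene counts ranged from 8335138 to 14909453 per library, and 11666 to 13576 genes had at least 1 read. The share of reads in no gene was 21.6% ± 3.69 (SD, n = 12) in steady state and 12.5% ± 2.5 (SD, n = 12) with IL-33. It was 19.7%, 27.2% and 30.5% in the 3 libraries of steady-state stage IV, against 18.8% to 22.5% at steady-state stage III. All 3 of these stage IV libraries had Ear1, Ear2, Ear6 and Ear10 levels below those of every library of the other groups. The part of the share of reads in no gene in the Ear levels was not tested. All 9 eosinophil markers were detected in every library, and their summed level was 26398 ± 5310 CPM (SD, n = 3) at steady-state stage III, 6323 ± 1740 at steady-state stage IV and 23937 ± 3170 at IL-33 stage IV. At steady-state stage III granule genes and Alox15 made up most of that sum, and the other members of the list were mixed. In the same order, the eotaxin receptor gene Ccr3 measured 660 ± 327, 1990 ± 365 and 1543 ± 128, and Siglecf measured 479 ± 196, 463 ± 140 and 709 ± 88.4. Il5ra measured 331 ± 19.3, 245 ± 28.5 and 103 ± 37.4. The means of Cebpe (627 ± 64.4, 461 ± 172 and 910 ± 81.8) and Gata1 (320 ± 49.9, 226 ± 122 and 293 ± 50.5) moved in the direction of the sum. Markers of other cells moved between the same groups. The 10 neutrophil markers summed to 22056 ± 2062, 19154 ± 8018 and 7545 ± 2328 in these groups, with at least 9 of the 10 detected in every library. The 15 monocyte and macrophage markers summed to means of 4822 (range 4176 to 5520), 4580 (2555 to 5714) and 4030 (3700 to 4539), with the macrophage receptor Marco at 0 in all 3. The 9 basophil and mast cell markers summed to 913 ± 180, 487 ± 340 and 2290 ± 484, with the mast cell protease Tpsb2 at 0 in all 3. Hdc followed that sum (means 497, 111 and 819), whereas Mcpt8 (105, 130 and 39.3) and Prss34 (181, 182 and 5.95) did not. The 5 early primary granule markers summed to 318 ± 144, 798 ± 273 and 374 ± 357. The 6 lymphocyte and red cell markers summed to means between 11.8 and 25.2, with the T cell gene Cd3e at 0 in all 3. The part of these other cells in the Ear results was not tested.

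Ear1 measured 2195, 2032 and 1437 scaled CPM in the 3 steady-state libraries of stage I, 3545, 2413 and 2259 at stage II, and 4809, 3435 and 3643 at stage III. At steady-state stage IV the same gene measured 534, 111 and 402. In the IL-33 libraries Ear1 measured 1630, 2550 and 2185 at stage I, 2319, 2714 and 2387 at stage II, 2296, 2934 and 2743 at stage III, and 1980, 2625 and 2004 at stage IV. Every steady-state stage IV library was thus below every other library, while the other 7 groups formed a chain in which each overlapped its neighbour in level. The order of the group means ran from steady-state stage III (3963 ± 741, SD, n = 3) through steady-state stage II, IL-33 stages III, II, IV and I, and steady-state stage I (1888 ± 399) to steady-state stage IV (349 ± 216).

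The libraries of Ear2 measured 151, 139 and 87.1 at steady-state stage I, 279, 145 and 158 at stage II, 341, 191 and 229 at stage III, and 28.2, 5.54 and 26.9 at stage IV. With IL-33 they measured 129, 205 and 176 at stage I, 152, 226 and 178 at stage II, 162, 312 and 213 at stage III, and 105, 165 and 114 at stage IV. Again the only group apart from its neighbour in level was steady-state stage IV (20.2 ± 12.7, SD, n = 3). The next lowest group mean was 126 ± 34.1, at steady-state stage I.

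Ear6 had the flattest course outside steady-state stage IV. It measured 285, 263 and 165 at steady-state stage I, 341, 222 and 223 at stage II, 347, 214 and 336 at stage III, and 7.64, 4.53 and 15.8 at stage IV. With IL-33 it measured 210, 331 and 299, then 241, 217 and 266, then 232, 225 and 241, and at stage IV 245, 289 and 275. The 7 other group means lay between 233 ± 7.96 and 299 ± 73.8 (SD, n = 3), and each of these groups overlapped its neighbour in level.

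Ear10 was close to the lower limit of measurement. It had 16, 39 and 14 reads in the steady-state libraries of stage I, 39, 48 and 25 at stage II, 35, 27 and 16 at stage III, and 5, 0 and 1 at stage IV, where a count of 0 allows up to 0.277 CPM. Its highest group mean was 5.59 ± 0.082 CPM (SD, n = 3) at IL-33 stage III and its lowest 0.190 ± 0.222 at steady-state stage IV. At IL-33 stage IV the libraries differed, with 1.93, 6.7 and 6.55 CPM.

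Summed over the 4 rows, the family reached 2254 ± 498, 3199 ± 843, 4518 ± 871 and 378 ± 232 CPM (SD, n = 3) at steady-state stages I to IV. With IL-33 the sums were 2576 ± 564, 2904 ± 232, 3124 ± 396 and 2605 ± 417. As a share of all gene reads before scaling, the family made up 0.0346% at steady-state stage IV and 0.226% to 0.383% in the other groups. The steady-state library numbered 1 was the highest of its group in 4 of 4 stages for Ear1, Ear2 and the family sum.

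**Figure D1:**
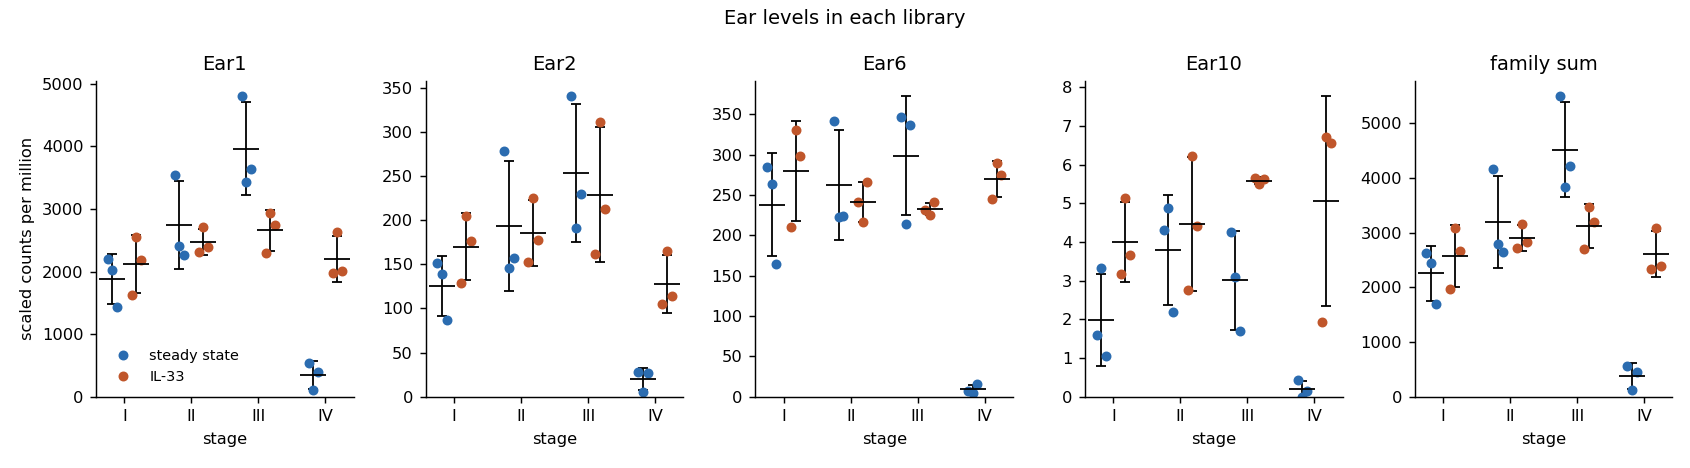
Scaled CPM (linear axes from 0) of each Ear gene and of their sum by stage, with 1 point per library, blue for steady state and orange for IL-33, and a black line with a bar for the mean and SD of 3 libraries. In every panel the 3 steady-state points at stage IV lie below all others, for example at 111 to 534 for Ear1, whereas the IL-33 points at stage IV lie among those of the earlier stages.

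The step from stage III to stage IV asks what changes as eosinophils complete their maturation. In steady state all 4 Ear genes fell at this step. The quasi-likelihood test of edgeR, adjusted by the Benjamini-Hochberg method over all 12743 genes, called 5.67% of all genes lower, and 4 of 4 members were among them. The fitted fall was largest for Ear6, which fell by 5.02 on the log2 scale (SE 0.37, edgeR adjusted p = 8.23e-09), which is 32.5-fold. Ear1 fell by 3.51 (SE 0.38, adjusted p = 2.19e-06, 11.4-fold) and Ear2 fell by 3.65 (SE 0.45, adjusted p = 1.32e-05, 12.6-fold). For Ear10 the fitted fall was 3.87 (SE 0.90, adjusted p = 0.00787), and it rested on 6 reads at stage IV. All 4 members had stage III and stage IV libraries that did not overlap, as did 11.4% of all genes in this direction. Their median was -3.76 on the log2 scale, against 0.02 over all genes tested. These are bulk libraries, so fewer cells with Ear RNA and less Ear RNA per cell cannot be told apart. The library numbered 2 at steady-state stage IV had the lowest family sum, 121 against 570 and 444.5, and also the lowest neutrophil marker sum of the 3, 10537 against 20531 and 26394. Without stage IV library 3, Ear6 fell by 5.61. Ear10 fell by 5.43 without stage IV library 1 and fell by 3.17 without library 2, and its call was lost when only the 2 groups compared were fitted (adjusted p = 0.196).

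With IL-33 the same step gave no called change. Between stages III and IV the fitted differences in log2 level were -0.27 for Ear1 (95% interval -0.98 to 0.44, adjusted p = 0.591), 0.21 for Ear6 (-0.42 to 0.85, adjusted p = 0.642) and -0.14 for Ear10 (-1.68 to 1.39, adjusted p = 0.914). Ear2 came closest to the threshold at -0.84 (-1.68 to 0.00, adjusted p = 0.127). With edgeR 0 of 4 members were called, against 29.1% of all genes in either direction, and 0 had an unadjusted p under 0.05. DESeq2 also called 0 of 4, while Ear2 was called lower in 3 other alternatives, such as fitting only the groups compared (-0.91, adjusted p = 0.0133). The family sum at IL-33 stage IV was 83.4% of that at IL-33 stage III. For Ear6, the 3 stage IV libraries lay above the 3 of stage III, without a call, and 27.2% of all genes did the same.

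Whether the step itself differed between the conditions was tested as an interaction, the IL-33 step minus the steady-state step. The difference was 5.24 for Ear6 (SE 0.47, edgeR adjusted p = 2.92e-07), 3.24 for Ear1 (SE 0.50, adjusted p = 9.14e-05), 2.81 for Ear2 (SE 0.59, adjusted p = 0.00161) and 3.72 for Ear10 (SE 1.14, adjusted p = 0.0251), all on the log2 scale. All 4 members were called higher, as were 8.44% of all genes. The value for Ear10 was 5.29 without steady-state library 1 of stage IV and 3.09 without library 2. Its call was lost in 9 of 19 alternatives, with adjusted p between 0.0505 and 0.0659: when only the 4 groups compared were fitted, and without steady-state library 1 of stage III, steady-state library 2 or 3 of stage IV, any 1 IL-33 library of stage III, or IL-33 library 2 or 3 of stage IV.

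Stage IV cells of the 2 conditions were then compared directly. With IL-33, Ear1 was 6.32-fold higher than in steady state (2203 ± 366 against 349 ± 216 CPM, SD, n = 3, edgeR adjusted p = 3.06e-05). Ear2 was 6.34-fold higher (128 ± 32.5 against 20.2 ± 12.7, adjusted p = 0.000221), and Ear6 was 29.3-fold higher (270 ± 22.6 against 9.31 ± 5.80, adjusted p = 6.63e-09). Ear10 had a fitted ratio of 24.5 (adjusted p = 0.00148), again against 6 reads. All 4 members were called higher, against 7.48% of all genes, and none overlapped between the conditions, against 16.5%. Their median was 3.64 on the log2 scale, and that over all genes was -0.04. Without steady-state library 3 of stage IV the Ear6 value was 5.47 on the log2 scale, and that of Ear10 was 6.19 without library 1 and 3.97 without library 2. This comparison, the steady-state step and the interaction share the 3 steady-state libraries of stage IV, so they do not add to each other as evidence. Between the stage IV groups the neutrophil marker sum also differed, 7545 with IL-33 against 19154, as did the basophil and mast cell sum, 2290 against 487. Of the 10 neutrophil markers 2 were called lower with IL-33 and 0 higher, against 4.68% and 7.48% of all genes. Retnlg alone gave 4596 of the 7545 and 6314 of the 19154. The means of Mmp8 (38.4 against 32.8) and Cxcr2 (6.61 against 3.26) went the other way. The part of these marker sums in the Ear differences was not tested.

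**Figure D2:**
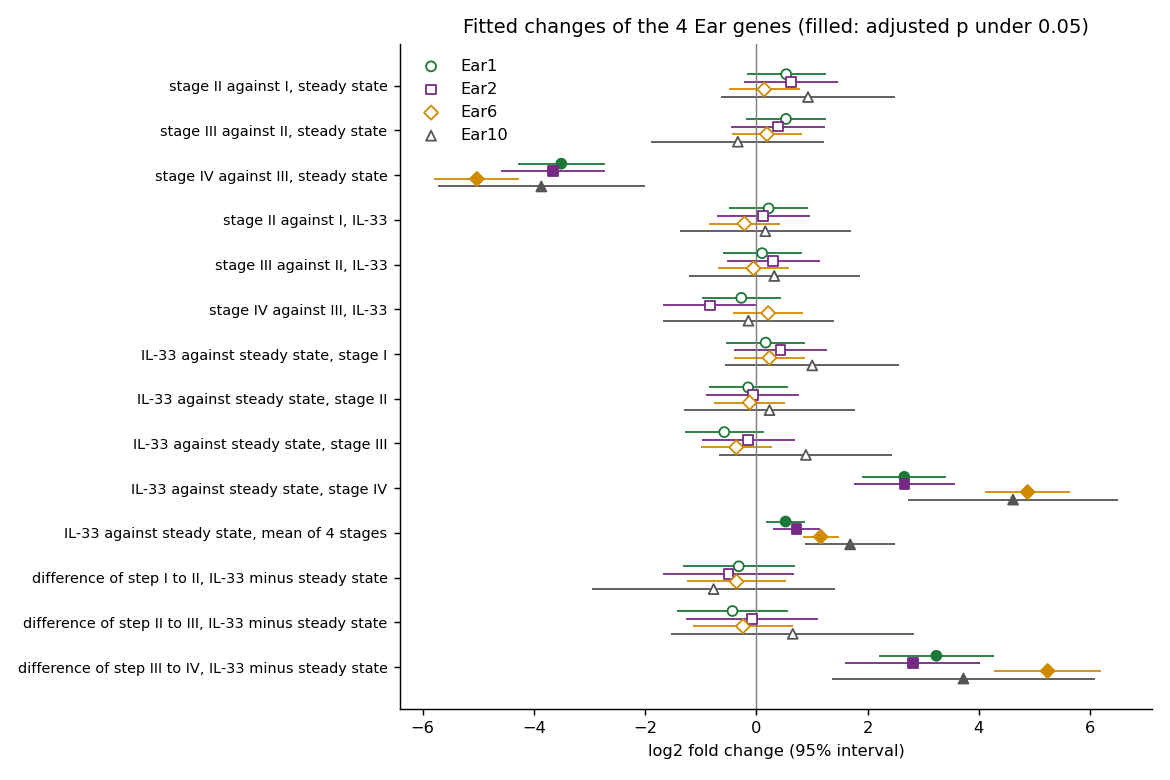
Fitted log2 fold changes of the 4 Ear genes (x axis) in the 14 comparisons (rows), with a 95% interval as a line and a filled symbol where the adjusted p was under 0.05. Filled symbols stand only in the rows that use steady-state stage IV: the steady-state step from III to IV, the IL-33 contrast at stage IV and over the mean of the stages, and the difference of the last step.

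In the earlier stages no member was called in any comparison. In steady state, Ear1 went from a mean of 1888 at stage I to 2739 at stage II and 3963 at stage III, with fitted steps of 0.54 (adjusted p = 0.42) and 0.53 (adjusted p = 0.242) on the log2 scale. Its stage I and stage II libraries did not overlap, as for 10.8% of all genes in this direction. EdgeR called 4.87% of all genes at the step from I to II and 34.6% at the step from II to III. With IL-33 it called 0.0942% and 0.0863%. A block for the replicate number was also fitted, since the numbers pair the libraries at 3 of these steps. With it, 1069 genes in place of 620 were called at the steady-state step I to II, 24 in place of 12 at that step with IL-33 and 93 in place of 11 at the IL-33 step II to III, again with no member among them. At stages I, II and III it called 4.06%, 8.03% and 33.4% of all genes between the conditions, and for the differences of the steps I to II and II to III 0% and 6.61%. In each of these 9 comparisons 0 of 4 members were called, also with DESeq2, and none had an unadjusted p under 0.05. For the difference of step I to II, where no gene of 12743 was called, 967 genes had an unadjusted p under 0.05 and DESeq2 called 103.

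At stage III the direction between the conditions was not shared by the members. The 3 IL-33 libraries of Ear1 lay below the 3 of steady state (2657 ± 328 against 3963 ± 741, SD, n = 3), a fitted log2 difference of -0.58 (adjusted p = 0.202), and 22.2% of all genes had groups apart in this direction. Ear10 lay the other way without overlap, at 5.59 ± 0.082 against 3.01 ± 1.28 (adjusted p = 0.376), as did 27.8% of all genes. Ear2 and Ear6 overlapped. Averaged over the 4 stages, IL-33 libraries were called higher for 4 of 4 members, against 21.4% of all genes: 0.53 for Ear1 (adjusted p = 0.019), 0.72 for Ear2 (adjusted p = 0.00769), 1.16 for Ear6 (adjusted p = 5.13e-06) and 1.69 for Ear10 (adjusted p = 0.00171), as log2 differences. That mean includes the stage IV difference, and at stages I, II and III no member was called. In that order of stages the log2 differences were 0.17, -0.15 and -0.58 for Ear1, and 0.43, -0.07 and -0.15 for Ear2. They were 0.24, -0.12 and -0.36 for Ear6, and 1.00, 0.24 and 0.89 for Ear10. For Ear1 the call was lost without the 4 steady-state libraries numbered 3 (0.42, adjusted p = 0.101).

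Most family reads were those of Ear1 in every group. Ear1 gave between 82.4% and 91.9% of the family reads in the 8 group means, Ear2 between 4.86% and 7.20%, and Ear10 between 0.0357% and 0.191%. Ear6 gave 10.5% ± 0.605 (SD, n = 3) at steady-state stage I, 8.21% ± 0.239 at stage II, 6.62% ± 1.24 at stage III and 2.88% ± 1.34 at stage IV. With IL-33 the Ear6 share was 10.9% ± 0.301, 8.37% ± 1.33, 7.54% ± 1.06 and 10.4% ± 1.05. Thus in both conditions the Ear6 share was highest at stage I and lower at stages II and III, and at stage IV the conditions parted. Levels were also divided by the length of all annotated exons, 730 bases for Ear1, 719 for Ear2, 945 for Ear6 and 678 for Ear10. Per kilobase, the level at steady-state stage III was 5428 ± 1015 CPM for Ear1, 353 ± 108 for Ear2, 316 ± 78.1 for Ear6 and 4.44 ± 1.88 for Ear10. The reference transcript of Ear6 has only 713 bases, so the order of Ear2 and Ear6 at this stage depends on the length used. At steady-state stage IV the same levels per kilobase were 478 ± 297, 28.1 ± 17.7, 9.85 ± 6.14 and 0.281 ± 0.327.

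Over all 24 libraries, Ear2 reads kept closer to Ear1 reads than Ear6 reads did. They were 6.90% ± 1.25 of Ear1 reads over all 24 libraries (SD, range 5.01% to 10.6%), while Ear1 itself ranged from 111 to 4809 CPM. Ear6 reads were 1.43% to 4.09% of Ear1 reads in the 3 libraries of steady-state stage IV, and 6.23% to 13.7% in the 21 others. In those 21 libraries the ratio to Ear1 was 7.08% ± 1.21 for Ear2 and 10.6% ± 2.24 for Ear6 (SD). The contrast between the 2 genes thus rested largely on steady-state stage IV. Ear1 and Ear2 share much sequence, and the part of misplaced reads in their ratio was not tested. Between steady-state stages III and IV the Ear6 to Ear1 ratio differed by -4.41 percentage points without overlap (two-sided exact permutation test, p = 0.1, the smallest that 3 libraries against 3 allow). The IL-33 and steady-state libraries of stage IV differed by 9.22 points (exact permutation p = 0.1). For Ear2 to Ear1 these differences were -0.65 points (exact permutation p = 0.4) and 0.08 points (exact permutation p = 1). Between IL-33 stages III and IV the ratio to Ear1 was different by 3.51 points for Ear6 and by -2.73 points for Ear2 (exact permutation p = 0.1 for each). Over the 6 such tests the adjusted p was 0.15 wherever the raw p was the smallest possible, and otherwise 0.48 and 1.

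**Figure D3:**
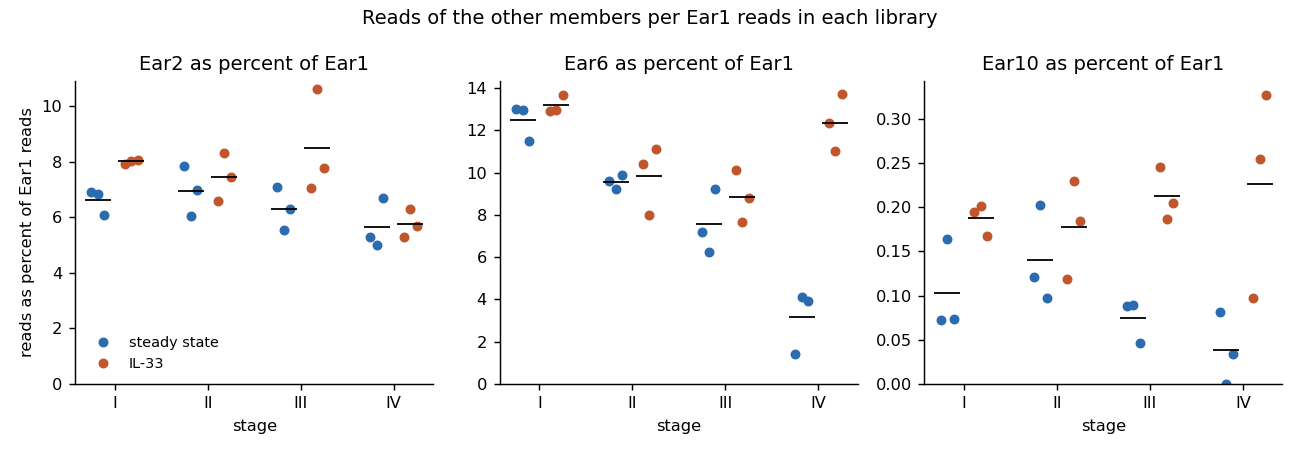
Reads of Ear2, Ear6 and Ear10 as a percent of Ear1 reads (linear axes from 0) by stage, with 1 point per library, blue for steady state and orange for IL-33, and a black line for the mean of 3 libraries. Ear2 stays between 5.01% and 10.6% in all groups, whereas Ear6 separates by condition at stage IV, with 1.43% to 4.09% in steady state and 11.0% to 13.7% with IL-33.

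Of 3 other granule genes, Epx and Prg3 fell already between steady-state stages II and III, and Prg2 did not pass the test before stage IV. Epx encodes eosinophil peroxidase, Prg2 encodes major basic protein, and Prg3 encodes its homologue. Relative to the stage I mean of the same condition, Epx was at 19.2% at steady-state stage III (range over 3 libraries 10.5% to 24.7%) and Prg3 at 34.7% (17.5% to 50.3%). The Ear family was at 200.5% (171% to 244%) at that stage, and Prg2 at 79.7% (55.9% to 91.9%). Between steady-state stages II and III Epx fell 4.51-fold (edgeR adjusted p = 2.66e-06) and Prg3 fell 2.58-fold (adjusted p = 0.00373), where no Ear gene was called. Prg2 had a log2 difference of -0.43 there (adjusted p = 0.226) and fell 22.5-fold between stages III and IV (adjusted p = 4.46e-09). At steady-state stage IV all were low: the family was at 16.8%, Ear6 at 3.91%, Prg2 at 3.55%, Prg3 at 1.09% and Epx at 0.154%. Ear1 (18.5%) and Ear2 (16.1%) were at higher percentages than Ear6 and Prg2, without a test of these differences.

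With IL-33, the family was at 101% of its stage I mean at stage IV (range 90.5% to 119.8%) and Prg2 was at 91.7% (83% to 104%). Prg3 was at 45.8% (39.4% to 56.0%) and Epx at 35.0% (27.2% to 41.6%). Every library of these 2 genes was below the stage I mean, while those of the Ear family lay on both sides of it. At stage IV the IL-33 level of Epx was 267-fold that of steady state (edgeR adjusted p = 3.58e-13), that of Prg3 34.7-fold (adjusted p = 1.35e-08) and that of Prg2 22.3-fold (adjusted p = 1.87e-09), so the 29.3-fold of Ear6 fell among them. Differences between these genes in fold were not tested.

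**Figure D4:**
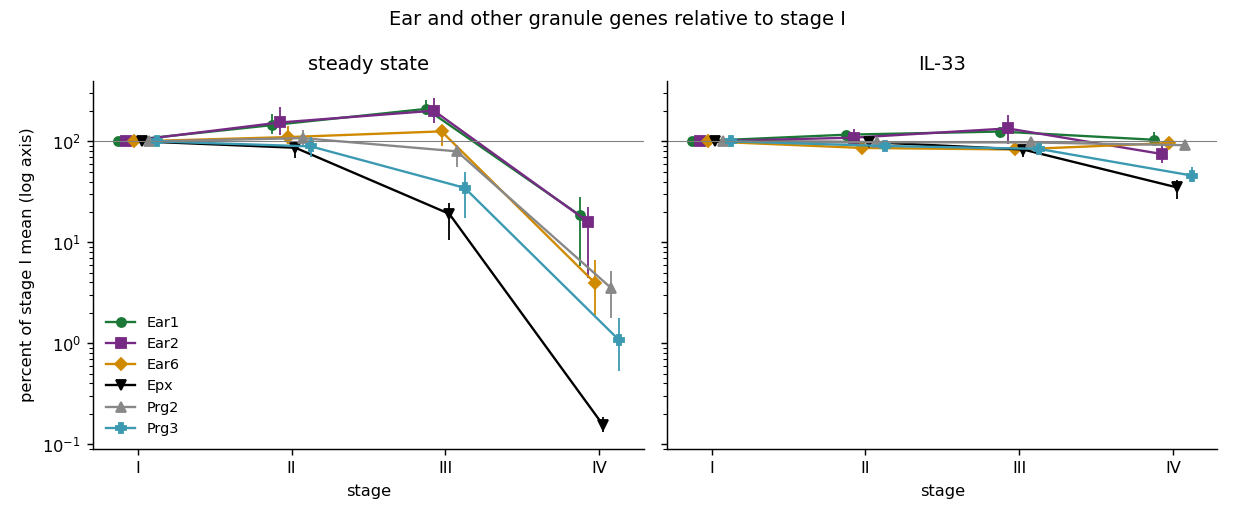
Mean level as a percent of the stage I mean of the same condition (log axis) by stage, for Ear1, Ear2 and Ear6 and for Epx, Prg2 and Prg3, with vertical lines from the lowest to the highest of 3 libraries. In steady state Epx and Prg3 are already at 19.2% and 34.7% at stage III while Ear1 is at 210%, and with IL-33 Ear1, Ear6 and Prg2 are at 104%, 96.3% and 91.7% at stage IV.

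Of 26 other listed members of the ribonuclease A superfamily and its inhibitor, 22 had a row and 10 passed the filter on low counts. At the steady-state step from III to IV, 0 of the 10 were called higher and 3 lower, against 3.55% and 5.67% of all genes. Between the conditions at stage IV 3 were called higher and 0 lower, against 7.48% and 4.68% of all genes. Rnase12, on the same chromosome (chr14:51056698-51057661), also fell at the steady-state step from III to IV. It measured 361 ± 110 CPM (SD, n = 3) at steady-state stage III and 87.2 ± 11.1 at stage IV, 4.14-fold lower (edgeR adjusted p = 1.83e-05). With IL-33 it measured 366 ± 23.5 and 294 ± 28.6, and at stage IV it was 3.37-fold higher than in steady state (adjusted p = 7.12e-05). The difference of its step between conditions was 1.73 on the log2 scale (adjusted p = 0.00147).

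Rnase6 encodes a ribonuclease with antimicrobial action in phagocytes. It rose 5.61-fold between steady-state stages II and III (63.9 ± 17.3 to 359 ± 52.2 CPM, SD, n = 3, edgeR adjusted p = 1.92e-07) and measured 392 ± 77.8 at stage IV, where no change was called (log2 difference 0.13, adjusted p = 0.781). With IL-33 the rise came 1 stage later, 5.74-fold from stage III to stage IV (79.4 ± 11.6 to 455.4 ± 74.4, adjusted p = 1.33e-07). At stage III Rnase6 was 4.52-fold lower with IL-33 (adjusted p = 6.58e-07), and both steps differed between the conditions (-1.60 for II to III, adjusted p = 0.00407, and 2.39 for III to IV, adjusted p = 2.78e-05, on the log2 scale).

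Rnh1 encodes the cytosolic ribonuclease inhibitor, which binds enzymes of this superfamily tightly and blocks them. It rose 2.95-fold from steady-state stage II to III (387 ± 29.7 to 1144 ± 24.7 CPM, SD, n = 3, edgeR adjusted p = 1.16e-05) and fell 1.85-fold to stage IV (617 ± 163, adjusted p = 0.0104). With IL-33 it rose 1.96-fold from stage III to IV (632 ± 48.1 to 1242 ± 132, adjusted p = 0.00145), and at stage IV it was 2.01-fold higher than in steady state (adjusted p = 0.00294). Rnh1 and Ear1 thus both had their highest steady-state mean at stage III, while with IL-33 Rnh1 was highest at stage IV and Ear1 was not.

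**Figure D5:**
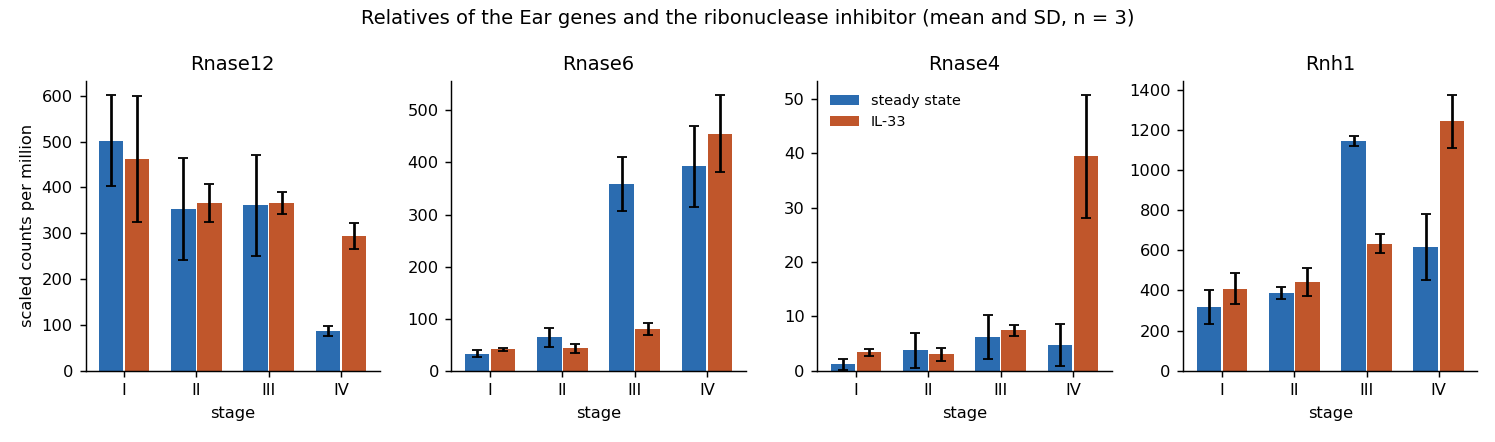
Scaled CPM (linear axes from 0) of Rnase12, Rnase6, Rnase4 and Rnh1 by stage, with bars for the mean and lines for the SD of 3 libraries, blue for steady state and orange for IL-33. Rnase12 is low only at steady-state stage IV (87.2), while Rnase6 is high at stages III and IV in steady state (359 and 392) and only at stage IV with IL-33 (455.4).

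The remaining relatives were rare. Rnase4 measured 39.5 ± 11.3 CPM (SD, n = 3) at IL-33 stage IV and 1.20 to 7.42 in the other group means, and its contrast between conditions at stage IV missed the threshold (adjusted p = 0.0566). Its gene overlaps Ang, which encodes angiogenin, on the same strand, and Ang had group means of at most 4.47. Ang4 had 25 reads at steady-state stage III, 0 at stage IV and 29 at IL-33 stage IV. Against the floor of 3 reads over the group, Ang4 was at least 9.35-fold lower at steady-state stage IV than at stage III (edgeR adjusted p = 0.0449) and at least 8.80-fold higher with IL-33 (adjusted p = 0.0384). Rnase10 had 1, 54 and 0 reads in the libraries of steady-state stage II, so nearly all came from 1 library, and 0 at stage III. With 42, 25 and 64 reads at IL-33 stage III it was at least 29.5-fold higher there than in steady state (adjusted p = 0.00942). Rnase2a, Rnase2b, Rnase9 and Rnase11 stayed under 2 CPM in every group mean. Ear3, Ear4, Ear7, Ear12 and Ear14 had a row but no read in any library. The annotation used for counting and the treatment of reads that match several places are not given, so these counts do not establish absent expression.

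Transcription factors of the eosinophil lineage, and regulators of such factors (Id2 and Trib1 among them), were counted from a list of 11, all tested. At the steady-state step from III to IV, Cebpb rose 2.38-fold (edgeR adjusted p = 0.0134), Gata2 fell 2.46-fold (adjusted p = 0.0241) and 9 were not called, against 3.55% of all genes higher and 5.67% lower. At stage IV, 3 were higher with IL-33 and 0 lower (7.48% and 4.68% of all genes): Gata2 by 65.7-fold (578 ± 140 against 8.80 ± 1.72 CPM, SD, n = 3, adjusted p = 1.87e-09), Xbp1, which drives the secretory apparatus, by 4.83-fold (605 ± 186 against 125 ± 23.5, adjusted p = 7.58e-07), and Cebpe, a C/EBP factor of granulocyte maturation, by 1.98-fold (adjusted p = 0.0276). Id2 missed the threshold there (1378 ± 231 in steady state and 798 ± 153 with IL-33, adjusted p = 0.0594). For the difference of the step between conditions 3 of 11 (Id2, Spi1 and Trib1) were called higher and 0 lower, against 8.44% and 10.3% of all genes. Gata2 and Xbp1 also differed at stage III, 32.5-fold (adjusted p = 2.57e-08) and 4.58-fold (adjusted p = 5.54e-07) higher with IL-33. Gata2 is also 1 of the 9 basophil and mast cell markers, and at IL-33 stage IV it gave 578 of their summed 2290 CPM. The part of these 11 genes in the Ear levels was not tested.

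Likeness between patterns is given as a description, as Pearson's r of log2(CPM + 1) over the 24 libraries, which share groups and pools. Ear1 and Ear2 had r = 0.98, and 0.88 without the 3 libraries of steady-state stage IV. Ear1 and Ear6 had r = 0.94, and 0.59 without those libraries, and Ear1 and Ear10 had 0.79 and 0.30. Among 8335 other genes with a group mean of at least 20 CPM, those most like the family sum were Prg2 (r = 0.94), Cd63, a granule membrane tetraspanin (0.92), the hyaluronidase gene Hyal3 (0.91), the transporter gene Spns3 (0.91) and the lysosomal sulfatase gene Galns (0.90). Without steady-state stage IV these values were 0.21, 0.60, 0.28, 0.52 and 0.52, so the likeness rested largely on those 3 libraries. For Epx, r with the family sum went from 0.83 to -0.44. The genes most like Ear6 were Prg2 (0.99), Prg3 (0.95) and Epx (0.93), and without steady-state stage IV these were 0.49, 0.05 and -0.16. Those most like Ear2 were Cd63, Galns and Prg2 (0.92 to 0.93), those most like Ear1 were Prg2, Cd63 and Hyal3 (0.91 to 0.93), and those most like Ear10 were Tbrg1, C1qtnf12 and Plekhf1 (0.87 to 0.88).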

How the data were processed

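RNA was measured in 24 libraries of sorted mouse bone marrow eosinophils. Per the labels' protocols, amplification used SMART-Seq v4 and library preparation Nextera XT, which keep no strand information. The authors deposited 1 file of whole-number read counts per gene for each library. Per the submitters' processing notes, the build was mm10 and the tools were STAR 2.6.1a and DESeq2. Which tool counted the reads, with which annotation and strand setting, and what it did with reads of several matches is not given in the sources used here. The 2 entries that name no gene (reads in no feature, 9.19% to 30.5%, and ambiguous reads, 1.73% to 2.60%, both as a percent of the reads listed) stayed out of library sizes and tests.

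Counts were fitted in 1 model of 8 groups with edgeR 4.0.16 in R 4.3.3 (quasi-likelihood, TMM scaling, low counts filtered by group, Benjamini-Hochberg over 12743 genes, threshold 0.05), and the script was tested on simulated data. The comparisons were 14: neighbouring stages, conditions per stage and over 4 stages, and differences of steps. P-values measure the spread between pools of 3 mice. Levels and shares were described without a test, and ratios with exact permutation tests. DESeq2 1.42.0, other scalings, no filter, a replicate block, only the groups compared, and leaving out each library were tried. Replicate numbers paired the libraries (every same-number correlation over 0.1) in 4 of the 6 stage steps, including the steady-state step from III to IV (0.11 to 0.22). Annotation came from GENCODE M21 (24498 of 24982 symbols matched, 98.1%) and promoters from RefSeq (GRCm38.p6). The Ear members, 3 granule genes and relatives with at least 10 reads in 1 library are named. So are up to 4 transcription factors or their regulators by adjusted p, and the genes with the most similar pattern. The members and lists were chosen with earlier results of these data known.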

Additional observations from a re-analysis of the deposited data

Results flagged for a closer look

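The change from stage III to stage IV differed between the conditions for all 4 Ear genes by a test of the difference itself (edgeR's quasi-likelihood interaction test, IL-33 step minus steady-state step). On the log2 scale the difference was 3.24 for Ear1, where the level fell 11.4-fold in steady state and was 1.21-fold lower with IL-33 without a call. It was 2.81 for Ear2, 5.24 for Ear6 and 3.72 for Ear10. The adjusted p-values were 9.14e-05, 0.00161, 2.92e-07 and 0.0251, in that order. In each condition the step compares 3 libraries with 3, and the steady-state stage IV libraries were below all others for each member.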

How the results depend on the processing

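Each of the 56 member values was refitted under the alternatives. The called values gave 300 refits: 289 kept the call, 11 lost it and 0 changed sign. For the steady-state step from III to IV, Ear1 ranged from -3.95 to -2.97 and Ear6 from -5.61 to -4.57 (adjusted p at most 0.009). The losses were those of Ear1 over the mean of the stages and of Ear10. For the IL-33 step from III to IV the count of called members was 1 in place of 0, namely Ear2, with library totals only (-1.08, adjusted p = 0.0376), with a replicate block (-0.82, adjusted p = 0.0453) and with only the groups compared (-0.91, adjusted p = 0.0133). At that step same-numbered libraries correlated at 0.046 to 0.10, so the rule that each such correlation exceed 0.1 was not met. Yet 6 of 6 correlated best with their own number, so whether the numbers pair these libraries was not settled. The replicate block changed no other call. Of the 5 genes most like the family sum, 0 were shared with Spearman's rho and 3 with Pearson's r over 8 group means.

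Values that were not called and changed sign lay near 0. With library totals only these were Ear1 at stage I between conditions (-0.04), Ear2 at stage III between conditions (0.12), Ear6 at the steady-state steps I to II (-0.02) and II to III (-0.16) and the IL-33 step III to IV (-0.03), and the difference of step II to III for Ear2 (0.22) and Ear6 (0.08). Without the 4 steady-state libraries numbered 3 they were Ear1 (-0.04) and Ear6 (-0.01) at stage I and Ear10 at stage II (-0.15) between conditions, Ear6 at the steady-state step II to III (-0.09), and the difference of step II to III for Ear2 (0.08) and Ear6 (0.05). With only the groups compared, the last was 0.02 for Ear2. Leaving out 1 library each gave ranges across 0 between conditions at stage II for Ear1 (-0.26 to 0.09), Ear2 (-0.23 to 0.30), Ear6 (-0.22 to 0.12) and Ear10 (-0.07 to 0.49), and at stage III for Ear2 (-0.43 to 0.13). They did so at the IL-33 step I to II for Ear2 (-0.04 to 0.28) and Ear10 (-0.16 to 0.41), the IL-33 step II to III for Ear6 (-0.12 to 0.02), the IL-33 step III to IV for Ear10 (-0.40 to 0.24), the steady-state step I to II for Ear6 (-0.10 to 0.29) and the difference of step II to III for Ear2 (-0.44 to 0.19). The cause was not tested.

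Library totals moved the median of all genes by up to -0.39 (difference of step III to IV), by 0.15 at the steady-state step III to IV and by -0.11 at stage IV between conditions, where the share of calls that were higher went from 45% to 22.1%, 38.5% to 56.9% and 61.5% to 50%. At the steady-state step III to IV, 1176 genes were called in all, 245 with only the groups compared, 719 without stage IV library 2 and 1822 with DESeq2. At stage IV between conditions 1550 genes were called, and 802 without IL-33 library 2. Over the alternatives that moved a count of calls by over 1.5 times, 620 genes at the steady-state step I to II became 21 to 1165, 4405 at the steady-state step II to III became 1965, 12 and 11 at the IL-33 steps I to II and II to III became 2 to 41 and 0 to 678, 518 and 1023 between conditions at stages I and II became 109 to 1078 and 381 to 1542, and 842 for the difference of step II to III became 1364 to 1664 in 3 alternatives and were fewer by over 1.5 times in 4, such as 500 without IL-33 library 2 of stage II. Depth limits Ear10 most, with 0 to 5 reads per library at steady-state stage IV.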
